A study of Homo sapiens with 4 samples.

Results

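The HOXB cluster on human chromosome 17 is described here through the contacts that SMC1 HiChIP recorded at HOXB1 to HOXB9 and at HOXB13 in A673 cells, an Ewing sarcoma line. HiChIP joins neighbouring stretches of chromatin by ligation and pulls down the joints held by a chosen protein, in this case SMC1, a core subunit of the cohesin ring. The groups were 2 STAG2-null libraries, derived from Cas9-edited single-cell clones per the labels, and 2 wild-type libraries of the same line. All 4 share the A673 background, the fixation, the SMC1 antibody and the Tn5 library method, and the labels name no treatment. STAG2 encodes one of the alternative STAG subunits of cohesin. The labels do not say which clone gave which STAG2-null library, or whether libraries of 1 genotype are separate cultures, so the p-values below reflect the spread of these 4 libraries, and that spread may be technical. Contacts do not measure transcripts, and the loss of STAG2 itself was not checked by them.

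The members were all pairs of anchors, the stretches of genome between which contacts were counted, with at least 1 anchor overlapping chr17:46600000-46810000 (hg19), the interval from HOXB1 to HOXB13. There were 1359 such pairs among 1125468 in the series (0.121%), at 18 of 79850 anchors. Of these, 861 pairs touched an anchor below 46710000 (HOXB1-HOXB9, 11 anchors), 146 touched the single anchor that overlaps 46795000 to 46810000 (HOXB13), and 415 touched 1 of the 6 anchors between them. A pair can belong to more than 1 of these sets. The unit is the paired-end tag (PET), 1 sequenced ligation event. The interval held 1275 and 1420 PETs in STAG2-null 1 and 2, and 1253 and 1415 PETs in wild-type 1 and 2, out of 661881 to 765017 PETs per library. Of the 1359 pairs, 621 rested on 1 PET over the 4 libraries, and 38 had the 20 PETs needed to be tested as a loop. All 18 anchors passed the same minimum for the sum of their PETs. Anchors are named below by their midpoint in Mb on chromosome 17.

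Hox genes encode homeodomain transcription factors that set position along the body axis, and within a cluster their order on the chromosome follows the order in which they act from head to tail. HOXB1 to HOXB4 act furthest forward, HOXB5 to HOXB9 in the trunk, and HOXB13, set apart from the rest by a long gap, at the tail end and in the prostate and distal colon. Cohesin extrudes loops of chromatin that stop at sites bound by CTCF, and such sites divide Hox clusters into stretches that contact different neighbours.

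In the RefSeq annotation of GRCh38.p14, used for gene order only, MIR10A lies between HOXB4 and HOXB5, and MIR196A1 and then PRAC1 lie between HOXB9 and HOXB13. The authors' deposited table of differential loops places the start of HOXB13 and of PRAC1, which encodes a small nuclear protein of prostate and rectum, on 1 anchor, 46.801 (46794090 to 46808136). It lists HOXB1 to HOXB4, and not HOXB5, under a loop that ends at 46668540, so the anchors up to there are called HOXB1-HOXB4 (6 anchors) and the other 5 of HOXB1-HOXB9 are called HOXB5-HOXB9. HOXB1, HOXB2, HOXB3, HOXB4, HOXB5, HOXB6, HOXB7, HOXB8 and HOXB9 were not placed on single anchors. The 2 mature microRNAs below are shown because their genes mark the borders of the stretches compared here, between HOXB4 and HOXB5 and between HOXB9 and HOXB13. They are RefSeq sequences, 5′ to 3′, with the seed (bases 2 to 8) in capitals, and the seeds differ.

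hsa-miR-10a-5p: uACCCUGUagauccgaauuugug

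hsa-miR-196a-5p: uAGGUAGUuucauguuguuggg

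Of the 10 genes of the rule, HOXB1 had a RefSeq promoter sequence here. It is shown because it stands at the outer end of the cluster, where the fitted changes described below were lowest, together with that of PRAC1, which shares its anchor with HOXB13. Each is the 250 bases before the start of transcription in GRCh38.p14, minus strand, chr17:48531012-48531261 for HOXB1 and chr17:48722519-48722768 for PRAC1.

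HOXB1: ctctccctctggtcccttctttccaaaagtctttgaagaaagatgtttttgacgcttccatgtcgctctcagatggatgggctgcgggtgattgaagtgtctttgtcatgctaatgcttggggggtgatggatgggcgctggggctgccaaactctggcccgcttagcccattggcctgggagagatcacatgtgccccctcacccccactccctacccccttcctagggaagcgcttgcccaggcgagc

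PRAC1: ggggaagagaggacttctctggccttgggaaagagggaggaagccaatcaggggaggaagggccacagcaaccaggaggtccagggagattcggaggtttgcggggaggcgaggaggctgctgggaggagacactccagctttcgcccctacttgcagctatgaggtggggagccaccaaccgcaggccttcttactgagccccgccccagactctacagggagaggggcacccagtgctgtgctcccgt

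Their GC content was 57.2% and 63.2%. Neither the core of the CTCF motif nor GGAA repeated 3 times in a row was found on either strand of the 300-base windows that hold them. Of 35116 RefSeq promoters of that length, 2.41% held the first and 0.0854% the second. The absence says only that these letters are not in these windows.

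The HOXB13 anchor had the largest sum of contacts of the 18. It held 221 and 269 PETs in the STAG2-null libraries and 205 and 246 in the wild-type libraries. It is also wide, at 14.0 kb, and per kb its 67.0 PETs over the 4 libraries stood below those of the 46.790 anchor (106 PETs per kb), the 46.756 anchor (103), the 46.665 anchor (93.0), the 46.673 anchor (81.7), the 46.702 anchor (75.3), the 46.741 anchor (72.3) and the 46.722 anchor (68.6). The fewest PETs per kb were at 46.714 (35.9), in the gap after HOXB9, and at 46.626 (38.8), in HOXB1-HOXB4. In the flags of the authors' deposited table, given for 5 of the 18 anchors, the HOXB13 anchor carries CTCF, H3K27ac (a mark of active promoters and enhancers) and a promoter, and no FLI1. The 46.665 anchor carries CTCF alone, 46.749 CTCF and H3K27ac, 46.756 CTCF and FLI1, the DNA-binding partner in the EWS-FLI1 fusion of Ewing sarcoma, and 46.790 none of them.

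**Figure D1:**
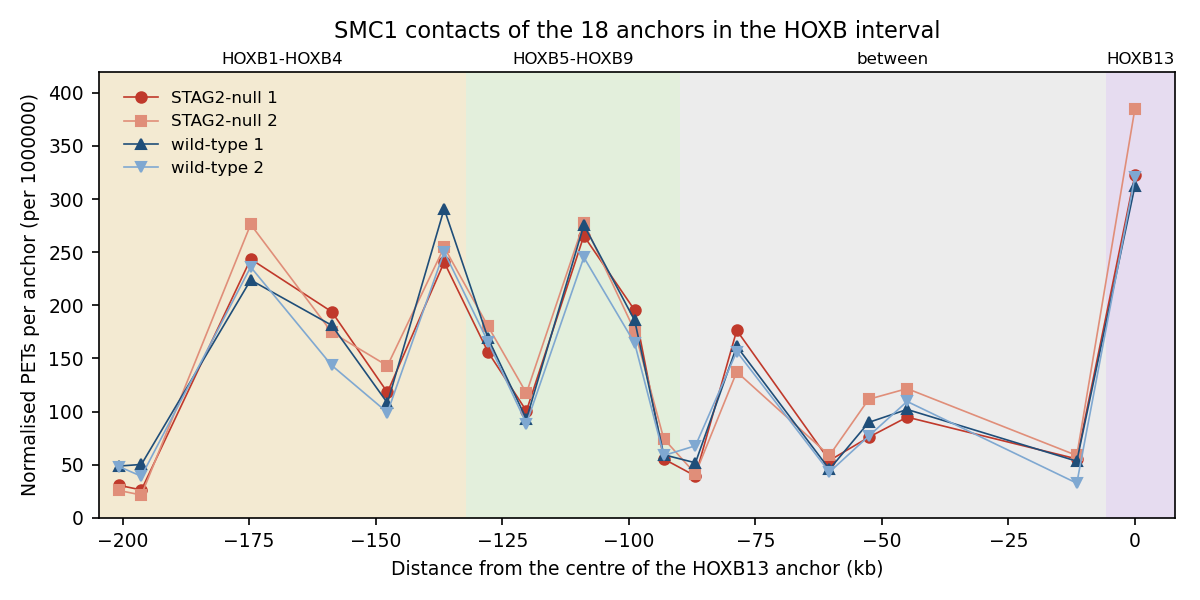
Normalised PETs of each of the 18 anchors (y axis, PETs per 1000000 of the TMM-scaled library size) against the distance of the anchor from the HOXB13 anchor (x axis, kb), with 1 line per library and shading for the 4 stretches. The HOXB13 anchor stands highest in every library, with 312 to 385 normalised PETs, and the 2 anchors at the HOXB1 end are lower in both STAG2-null libraries than in both wild-type libraries.

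Of the contacts leaving the interval, those of HOXB1-HOXB9 went mainly away from HOXB13. Those of HOXB13 went mainly to the higher side, at whose border HOXB13 lies. Of the PETs that left the interval from HOXB1-HOXB9, 549 went to higher coordinates, the side beyond HOXB13, and 1719 to lower coordinates, the side of SKAP1, a gene for a T-cell adaptor protein. That is 24.2% to the higher side, with 26.4% and 25.6% in the STAG2-null libraries and 23.2% and 22.0% in the wild-type libraries. From HOXB13, 584 PETs went to the higher side and 113 to the lower side, or 83.8%, with 84.5%, 83.3%, 87.3% and 80.8% in the same order. HOXB13 exceeded HOXB1-HOXB9 in all 4 libraries, by 59.7 ± 2.93 points (SD, n = 4). The bounds of the interval favour this sign, since only partners outside it are counted and HOXB13 lies at its higher border. No test of the difference is therefore given. The anchors of the gap were close to HOXB13, with 73.7% to the higher side (70.6% to 76.1% across libraries).

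HOXB13 is nearer to the higher end of the interval and HOXB1-HOXB9 to the lower end, and the part of distance in this contrast was not tested. Among pairs between 210 and 1000 kb long, a range chosen after the data were seen, the shares were 25.3% for HOXB1-HOXB9 and 58.9% for HOXB13. The difference was then 34.1 ± 2.87 points (SD, n = 4), again in 4 of 4 libraries. The p-value was 0.125 in a two-sided exact paired permutation test, the smallest that 4 libraries can give. In the same range the gap stood at 61.9%, and HOXB13 was above it in 1 of 4 libraries. The number of anchors at those distances was alike for all 18 anchors, with 51 to 57 on the lower side and 64 to 69 on the higher side. The higher side thus had more of them throughout, at 68 against 57 for HOXB13, and their part in the shares was not tested. Over all lengths the genotypes did not overlap for HOXB1-HOXB9, whose share to the higher side was 26.0% ± 0.564 in STAG2-null cells against 22.6% ± 0.876 in the wild type (SD, n = 2 each), with p = 0.333 in a two-sided exact permutation test, the smallest that 2 against 2 allows. Between 210 and 1000 kb the values were 27.1% ± 0.216 and 23.6% ± 1.18. For HOXB13 over all lengths the genotypes overlapped (83.9% ± 0.836 and 84.0% ± 4.55).

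**Figure D2:**
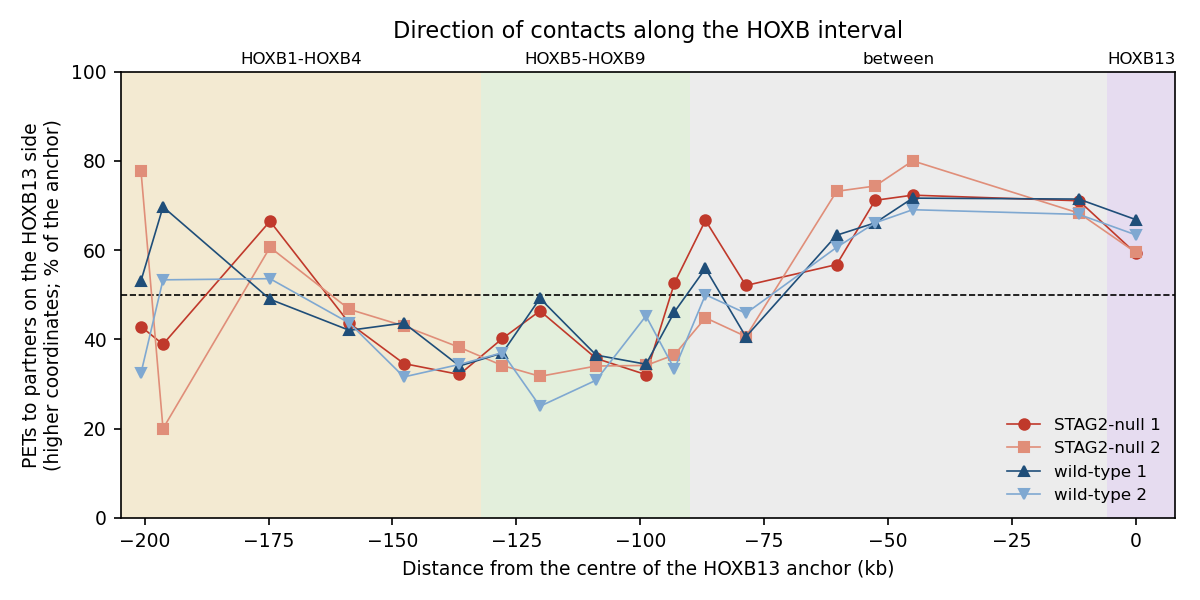
Share of each anchor's PETs whose partner lies at higher coordinates, pairs inside the interval included (y axis, %), against distance from the HOXB13 anchor (x axis, kb), with 1 line per library and a dashed line at 50%. Anchors from 46.653 through HOXB5-HOXB9 lie mostly below the line and those from 60 kb before HOXB13 onward lie above it in every library.

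The shares also varied anchor by anchor, when pairs inside the interval were counted too. In HOXB1-HOXB4 the share stood at 48.1% at 46.600 and 51.0% at 46.605. It then went from 57.7% at 46.626 to 44.0% at 46.642, 38.4% at 46.653 and 34.7% at 46.665. In HOXB5-HOXB9 it lay between 34.2% (46.692) and 41.4% (46.708). Through the gap it went from 53.5% at 46.714 and 45.1% at 46.722 to 63.8% at 46.741, 69.8% at 46.749 and 73.4% at 46.756, before 69.8% at 46.790 and 62.1% at HOXB13. Of the 14899 anchors of the series with at least 100 PETs, the median was 50% and the range from the 5th to the 95th percentile 24.6% to 75.4%. All 18 anchors lie inside that range. The 62.1% of HOXB13 was reached or passed by 21.8% of those anchors. The share crossed 50% more than once along the interval, and from 46.741 onward it was above 50% in all 4 libraries.

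Inside the interval, the pairs with the most PETs joined near neighbours, within a stretch or across the border of HOXB1-HOXB4 and HOXB5-HOXB9. HOXB1-HOXB4 anchors held 389 PETs among themselves, HOXB5-HOXB9 anchors 288, and the 2 stretches shared 330. The member pair with the most PETs over the 4 libraries, 95, joined 46.626 and 46.642, both in HOXB1-HOXB4, with 35 and 25 PETs in the STAG2-null libraries and 20 and 15 in the wild-type libraries. Its 35 wild-type PETs were fewer than the 42 of HOXB13 with 46.868. They were also fewer than the 37 each of 46.692 with 46.702, 46.665 with 46.673 and 46.626 with 46.665. Both STAG2-null values were above both wild-type values, and the log2 change was 0.73 ± 0.33 (SE), with an adjusted p = 0.429 in edgeR (quasi-likelihood test, Benjamini-Hochberg over 11872 loops). It lay between 0.42 and 1.02 when 1 library was left out, being lowest without STAG2-null 1. Next came 46.692 with 46.702, in HOXB5-HOXB9, with 26 and 24 against 20 and 17 PETs (0.38 ± 0.34). The CTCF-flagged 46.665 anchor, last of HOXB1-HOXB4, held 14 and 18 against 18 and 19 PETs with its neighbour 46.673, and 13 and 17 against 16 and 21 with 46.626. In both of these the STAG2-null libraries were the lower ones once normalised, though the PETs themselves tied or crossed. Pairs of 46.642 with 46.665 (10, 10, 12 and 13 PETs) and with 46.653 (14, 14, 9 and 6) did not overlap between genotypes either, in opposite directions. The remaining pairs among the 10 strongest of HOXB1-HOXB9, at 41 to 43 PETs over the 4 libraries, overlapped between genotypes. These joined 46.665 to 46.692, 46.681 to 46.692, 46.653 to 46.665, and 46.673 to 46.692.

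**Figure D3:**
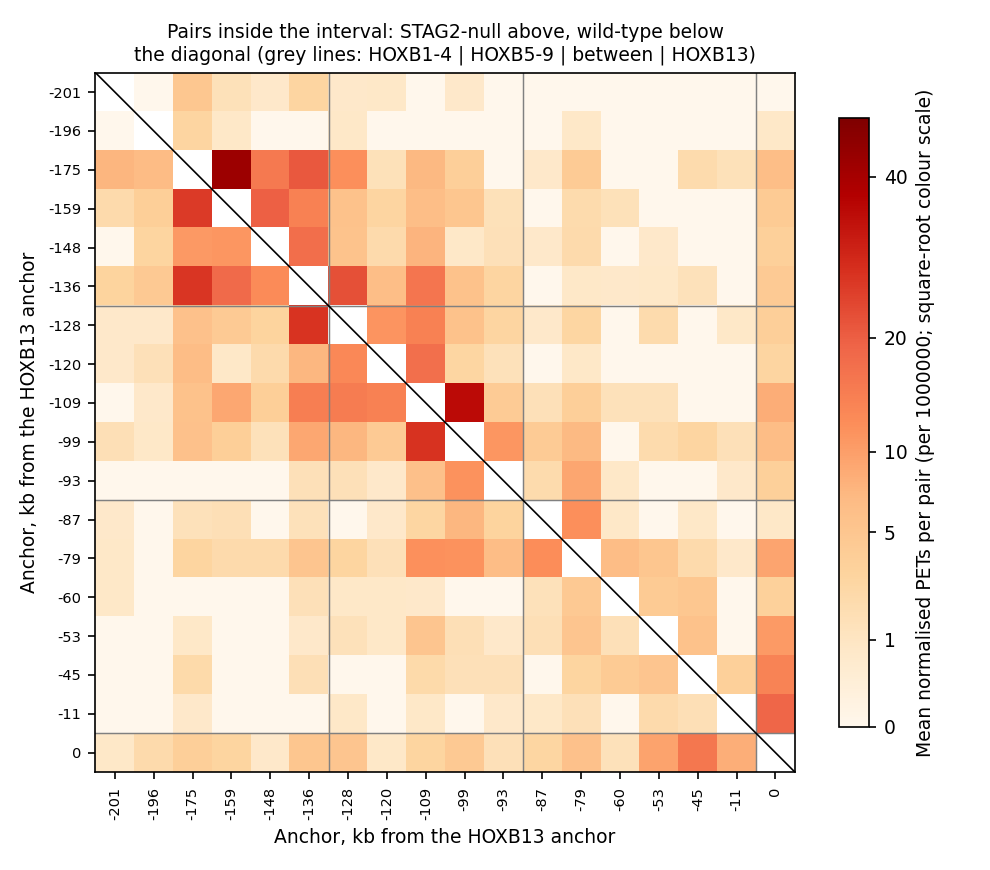
Mean normalised PETs of each pair of the 18 anchors (colour, per 1000000, square-root scale), STAG2-null above and wild-type below the diagonal, with axes giving each anchor's distance from the HOXB13 anchor in kb and grey lines between the stretches. The darkest squares lie among the anchors of HOXB1-HOXB9, and squares joining HOXB1-HOXB9 to HOXB13 are pale.

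Most PETs of HOXB13 went to the higher side, 584 of 941 over the 4 libraries, and 113 went to the lower side. PETs joining HOXB1-HOXB9 to HOXB13 numbered 34 and 28 in the STAG2-null libraries and 21 and 20 in the wild-type libraries. They made up 15.4% and 10.4% of the PETs of HOXB13 in STAG2-null 1 and 2, and 10.2% and 8.13% in wild-type 1 and 2. What share these distances alone would give was not tested. As shares of the interval's PETs the joining PETs were 2.67% (Wilson 95% interval 1.91 to 3.70) and 1.97% (1.37 to 2.84) in STAG2-null cells. In wild-type cells they were 1.68% (1.10 to 2.55) and 1.41% (0.917 to 2.17). These intervals overlap and cover counting error only. The genotype means were 2.32% ± 0.491 and 1.54% ± 0.186 (SD, n = 2 each), the libraries did not overlap, and p was 0.333 in a two-sided exact permutation test, the smallest possible. No joining pair reached 20 PETs, and the 55 PETs of HOXB5-HOXB9 with HOXB13 (19 and 16 against 13 and 7) were spread over 5 pairs. The gap anchors shared 141 PETs with HOXB13, at 32 and 49 against 27 and 33.

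The strongest pair of HOXB13 ran out of the cluster, over 66.6 kb to the 46.868 anchor, with 17 and 22 PETs in STAG2-null cells against 15 and 27 in the wild type. The genotypes overlapped, and the log2 change was -0.15 ± 0.35 (SE). Its pair with 46.959, 158 kb away, held 13 and 12 against 14 and 17 PETs, and both STAG2-null values were the lower ones (-0.35 ± 0.41). Inward, HOXB13 paired with 46.756 in the gap (5, 15, 9 and 13 PETs), where the STAG2-null libraries were the lowest and the highest of the 4. Its pair with the adjacent 46.790 anchor held 11 and 16 PETs against 8 and 3, higher in both STAG2-null libraries, with a log2 change of 1.23 ± 0.52 and an adjusted p = 0.393 in edgeR. That change was 2.15 without wild-type 1 and 0.62 without wild-type 2. Of the remaining 8 tested pairs of HOXB13, none separated the genotypes. They joined it to 46.879 (34 PETs over the 4 libraries), 46.882 (32), 46.830 (30), 46.815 (29), 46.749 (28), 46.848 (27), 46.894 (26) and 46.722 (21).

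The question set by the design was which contacts differ with and without STAG2. Summed over all their pairs, HOXB1-HOXB9 held 863 and 932 PETs in STAG2-null cells against 859 and 944 in the wild type, and the genotypes overlapped. Normalised to PETs per 1000000 of the TMM-scaled library size, these were 1296 ± 53.1 and 1270 ± 54.4 (SD, n = 2 each). The log2 change was 0.03 ± 0.11 (SE; 95% interval -0.19 to 0.25), with an adjusted p = 0.944 in edgeR. HOXB13 stood at 354 ± 44.3 against 316 ± 6.13 normalised PETs. Its log2 change was 0.16 ± 0.13 (-0.10 to 0.42), with an adjusted p = 0.678 in edgeR. The 2 genotypes did not overlap there, through STAG2-null 2 with 385, while STAG2-null 1 with 322 lay next to wild-type 2 with 321. The change at HOXB13 was 0.03 without STAG2-null 2 and 0.28 without STAG2-null 1. These intervals leave room for changes of the size of their bounds in either direction. The log2 ratio of HOXB1-HOXB9 to HOXB13 PETs, joining pairs left out, was 2.15 and 1.91 in STAG2-null cells against 2.19 and 2.03 in the wild type (two-sided exact permutation p = 0.667).

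None of the 38 tested loops and none of the 18 anchors passed an adjusted p under 0.05 in edgeR, against 0.194% of all 11872 loops and 0.875% of all 60425 anchors. At an unadjusted p under 0.05, 6 loops were higher and 1 lower in STAG2-null cells, against 4.84% and 4.75% of all loops. For anchors the counts were 0 and 3, against 5.77% and 6.16% of all anchors. With DESeq2 no loop or anchor of the interval was called either. It gave no adjusted p for the 46.600, 46.605, 46.708, 46.714, 46.741, 46.749 and 46.790 anchors, so it could not call these. Genotypes did not overlap, with STAG2-null higher, in 10 of 38 loops (19.7% of all loops) and, lower, in 6 (20.3%), and at 6 of 18 anchors higher (20.6% of all anchors) and 3 lower (21.6%). The median log2 change was 0.20 over the 38 loops, against -0.04 over all loops, and 0.11 over the 18 anchors, against 0.00 over all anchors. These loops share anchors and are not independent of each other.

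**Figure D4:**
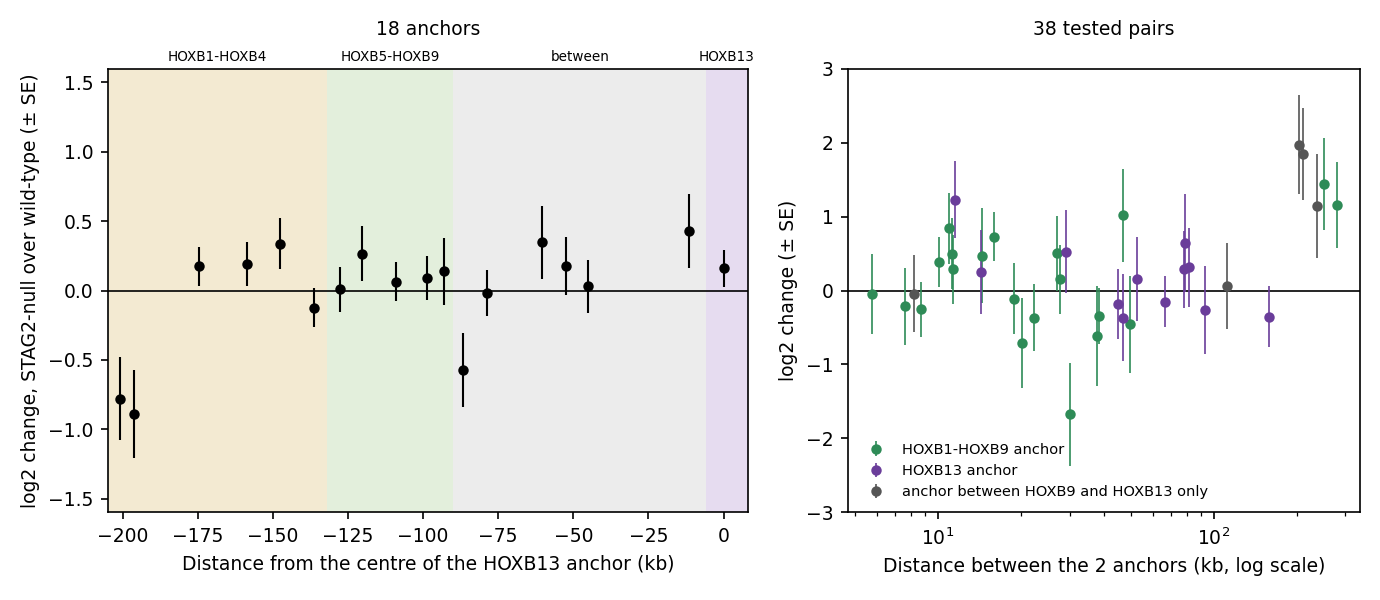
Fitted log2 change, STAG2-null over wild-type, with its SE for the 18 anchors by distance from the HOXB13 anchor in kb (left) and for the 38 tested pairs by distance between their anchors on a log axis (right). The 2 anchors at the HOXB1 end lie lowest on the left. The 5 tested pairs longer than 200 kb all lie above 1 on the right. These pairs have 46.959 or 46.414 as 1 anchor and held 14 to 23 STAG2-null PETs against 5 to 9 wild-type PETs. A pair with 5 to 9 PETs in each genotype would have missed the minimum of 20 for testing.

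The 2 anchors at the HOXB1 end had the smallest p-values of the 18, and both were lower in STAG2-null cells. The 46.600 anchor (46599387 to 46601359) held 21 and 18 PETs in STAG2-null cells against 32 and 37 in the wild type, or 28.2 ± 3.44 against 48.5 ± 0.334 normalised PETs (SD, n = 2 each). Its log2 change was -0.78 ± 0.30 (SE), with an adjusted p = 0.225 in edgeR. The 46.605 anchor (46603873 to 46605761) held 18 and 15 against 33 and 30 PETs, with a log2 change of -0.89 ± 0.32 and an adjusted p = 0.173 in edgeR. Neither passed the threshold, and both stayed negative with any 1 library left out. Contacts of HOXB1-HOXB4 with 46.592, an anchor just outside the interval on the same side, held 9 and 9 PETs against 24 and 12. Other anchors near it on that side differed in direction. Those with 46.570 held 5 and 6 against 13 and 17 PETs, and those with 46.553 held 11 and 9 against 5 and 8. At 46.598 (9, 7, 6 and 9 PETs), 46.561 (9, 11, 16 and 8) and 46.579 (9, 13, 11 and 17) the genotypes overlapped. All contacts of HOXB1-HOXB4 with the lower side held 220 and 219 PETs against 233 and 280, or 317 ± 5.27 against 360 ± 7.34 normalised PETs (SD, n = 2 each), without overlap.

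The 8 anchors with the most PETs showed smaller changes. After HOXB13 they were 46.692 (182, 194, 181 and 188 PETs; log2 change 0.06 ± 0.14), 46.665 (165, 178, 191 and 192; -0.12 ± 0.14) and 46.626 (167, 193, 147 and 181; 0.18 ± 0.14). At 46.626 both STAG2-null libraries were the higher ones once normalised, and at the other 2 the genotypes overlapped. Then followed 46.702 (134, 123, 122 and 126; 0.09 ± 0.16), 46.642 (133, 122, 119 and 110; 0.19 ± 0.16) and 46.673 (107, 126, 111 and 127; 0.01 ± 0.16), all with overlapping genotypes. The 46.722 anchor in the gap (121, 96, 106 and 120; -0.02 ± 0.16) overlapped as well and turned positive, to 0.07, with each library scaled to its total on chromosome 17. Of the anchors with fewer PETs, 46.653, 46.681, 46.708, 46.741, 46.749, 46.756 and 46.790 had log2 changes between 0.03 and 0.43, none past the threshold. The 46.714 anchor, first after HOXB9, held 27 and 29 PETs against 34 and 52 (-0.57 ± 0.27; adjusted p = 0.356 in edgeR).

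Contacts out of HOXB5-HOXB9 into the gap held fewer PETs in both STAG2-null libraries, 31 and 33 against 46 and 46, or 46.2 ± 1.42 against 65.0 ± 7.11 normalised PETs (SD, n = 2 each), without overlap. The pair of 46.692 with 46.722 held 4 and 1 PETs against 9 and 7, a log2 change of -1.68 ± 0.70 with an adjusted p = 0.393 in edgeR. It was -2.94 without STAG2-null 1 and -0.98 without STAG2-null 2. This pair was the only one of the 38 that was lower in STAG2-null cells at an unadjusted p under 0.05. It was chosen after its values were seen, as were the contrasts between classes of pairs given here and those with the 46.959 and 46.414 anchors that follow. Most classes of pairs overlapped between genotypes. Several were higher in STAG2-null cells without overlap, among them pairs within HOXB5-HOXB9 (74 and 76 against 68 and 70 PETs). Contacts of HOXB1-HOXB4 with the lower side, given above, were lower without overlap. Over all tested loops of the series, 19.7% were higher and 20.3% lower without overlap. These shares are for single loops, and none was computed for classes of pairs. HOXB13 held 15 and 12 against 8 and 13 PETs with HOXB1-HOXB4, where the normalised values nearly met (17.17 in STAG2-null 2 and 16.95 in wild-type 2).

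The gap anchors 46.749 and 46.756 separated the genotypes at 46.959, 158 kb beyond HOXB13. The pair of 46.749 with 46.959 held 8 and 15 PETs in STAG2-null cells against 4 and 2 in the wild type. Its log2 change was 1.85 ± 0.62 (SE), with an adjusted p = 0.226 in edgeR, and it lay between 1.37 and 2.48 with 1 library left out. The pair of 46.756 with 46.959 held 10 and 11 against 2 and 3 PETs. Its log2 change was 1.97 ± 0.67, with an adjusted p = 0.227 in edgeR, and between 1.79 and 2.20 with 1 library left out. The 46.722 anchor was also higher there in both STAG2-null libraries (6 and 8 against 2 and 4 PETs). HOXB13, which lies between these anchors and 46.959, was lower there in both (13 and 12 against 14 and 17). The tested pairs of gap anchors with 46.959 reached the minimum of 20 PETs mainly through the STAG2-null libraries.

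The other gap anchors had few PETs with 46.959, at 1, 1, 1 and 3 for 46.714, at 2, 2, 2 and 0 for 46.741 and at 1, 1, 3 and 1 for 46.790. Over all 6 gap anchors, contacts with 46.959 held 28 and 38 PETs in STAG2-null cells against 14 and 13 in the wild type, or 47.6 ± 9.58 against 19.1 ± 3.09 normalised PETs (SD, n = 2 each). The gap held 2.15 and 3.17 times as many PETs with 46.959 as HOXB13 did in the STAG2-null libraries, and 1.0 and 0.765 times as many in the wild-type libraries. The ratio did not overlap between genotypes. It was formed after both sets of values were seen, so this separation is no independent evidence and no test of it is given. Contacts of HOXB1-HOXB9 with 46.959 overlapped (18 and 17 against 18 and 9 PETs). The sum over all pairs of the 46.959 anchor, members or not, was 206 and 216 against 149 and 211 PETs, a log2 change of 0.27 ± 0.14 with an adjusted p = 0.414 in edgeR. Its part in the difference was not tested.

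On the SKAP1 side the corresponding outside anchor was 46.414, which had 110 of its 125 PETs in the interval with HOXB1-HOXB9. These contacts held 32 and 37 PETs in STAG2-null cells against 15 and 26 in the wild type, or 49.8 ± 4.44 against 28.4 ± 7.83 normalised PETs (SD, n = 2 each), without overlap. The gap held 9 PETs with it over the 4 libraries and HOXB13 held 6. The 251-kb pair of 46.414 with 46.665 held 10 and 10 against 2 and 5 PETs. Its log2 change was 1.44 ± 0.62, with an adjusted p = 0.412 in edgeR, and it was 2.13 without wild-type 2 and 1.01 without wild-type 1. The 279-kb pair with 46.692 held 10 and 11 against 4 and 5 PETs (1.15 ± 0.58). Both pairs reached the minimum of 20 PETs mainly through the STAG2-null libraries. The sum over all pairs of 46.414 held 82 and 108 against 58 and 86 PETs, a log2 change of 0.44 ± 0.18 with an adjusted p = 0.282 in edgeR. Its part in the difference was not tested either.

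**Figure D5:**
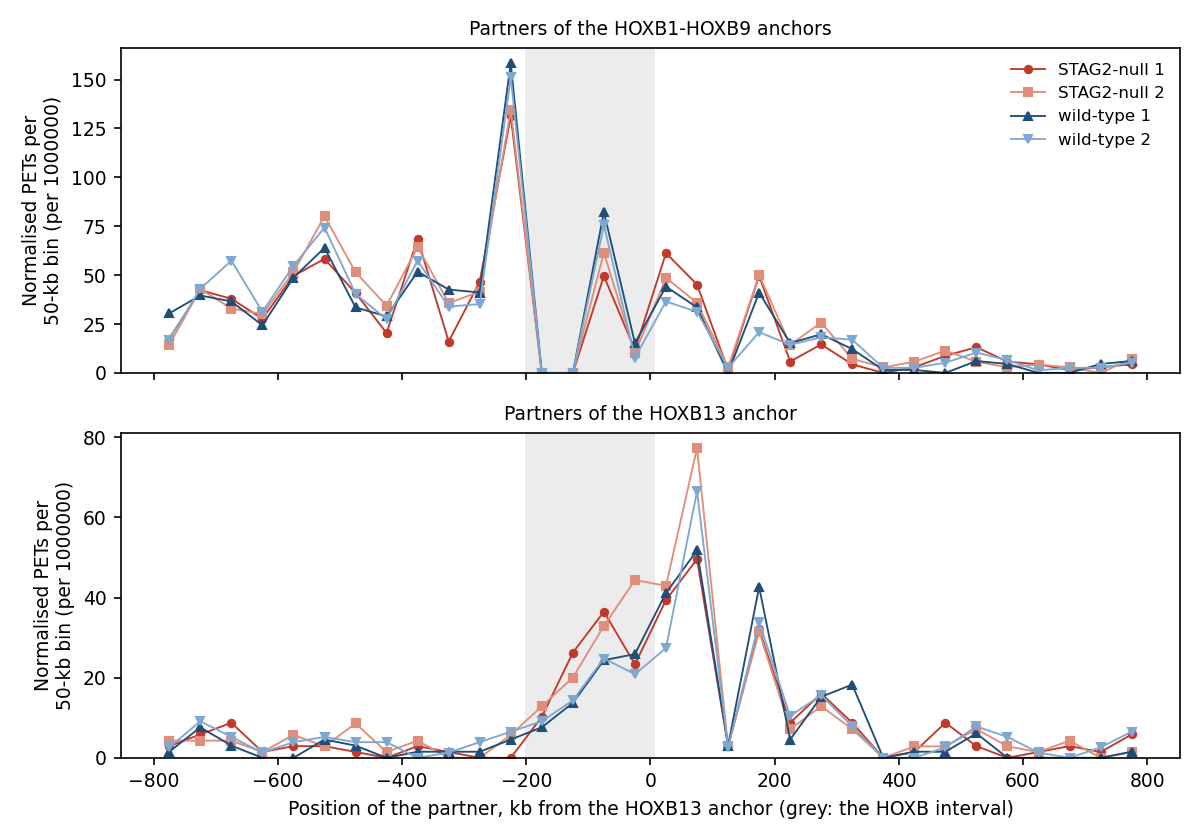
Normalised PETs (y axis, per 1000000) of HOXB1-HOXB9 (top) and HOXB13 (bottom) with partners in 50-kb bins by distance from the HOXB13 anchor (x axis, kb), with 1 line per library, the interval in grey and pairs within a set left out. Contacts of HOXB1-HOXB9 extend over the lower side with a peak of 131 to 158 in the adjoining bin, whereas those of HOXB13 lie mostly between 150 kb below and 200 kb above it.

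Of these pairs, 4 appear in the authors' deposited table of differential loops, all listed as stronger in the mutant. They are 4 of the 74 high-confidence loops of the interval (5.41%), against 650 of 22680 in the series (2.87%). Of the 4 loops, 2 share the 46.959 anchor. The authors' deposited table gives 46.414 with 46.665 a log2 fold change of 1.47, turned here to STAG2-null over wild-type, and an adjusted p of 0.0911 by independent hypothesis weighting. For 46.749 with 46.959 the authors' deposited table gives 1.88 and 0.0451, for 46.756 with 46.959 it gives 2.01 and 0.0424, and for 46.790 with HOXB13 1.26 and 0.0841. The PETs in that table equal those of the per-library files, and the sizes lie close to those fitted here. That table runs to an adjusted p of 0.0998, a wider limit than the 0.05 used here, and 2 of the 4 pairs are above 0.05 in it. The adjusted p-values fitted here for these 4 pairs ran from 0.226 to 0.412 in edgeR. Of the 74 high-confidence loops, 47 had an anchor in HOXB1-HOXB9, 19 had the HOXB13 anchor and 3 joined them. Their median length was 59.2 kb, against 24.5 kb over all high-confidence loops.

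Both sets drew on many of the same outside anchors in unequal amounts. Of 213 outside partners on chromosome 17, HOXB1-HOXB9 had 173 and HOXB13 had 129. The 106 shared partners were 61.3% of the first and 82.2% of the second. The partners with the most PETs over the whole interval were 46.959 (211), 46.868 (194), 46.414 (125) and 46.338 (101). HOXB13 held 81 of the 194 PETs at 46.868 and 8 of the 101 at 46.338. The median contact length weighted by PETs was 126 to 177 kb across libraries for HOXB1-HOXB9, 93.1 to 154 kb for HOXB13, and 109 to 115 kb over all pairs. Genotypes overlapped in this median for both sets. Contacts of 20 to 100 kb made up 23.4% ± 0.304 of HOXB1-HOXB9 PETs in STAG2-null cells against 28.2% ± 0.476 in the wild type (SD, n = 2 each), without overlap. Over all pairs of the series the same class stood at 26.4% ± 0.171 and 28.1% ± 0.264, also lower in STAG2-null cells. Contacts of 100 to 500 kb made up 44.2% ± 2.56 of HOXB1-HOXB9 PETs in STAG2-null cells and 41.1% ± 0.791 in wild-type cells, without overlap. The gap anchors differed in the same direction, at 47.4% ± 0.816 and 40.1% ± 0.541, also without overlap. For HOXB13 the genotypes overlapped (34.4% ± 4.48 and 37.4% ± 1.67). Over all pairs this class was lower in STAG2-null cells (33.9% ± 0.259 and 35.1% ± 0.402).

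The shares of the interval and of its surroundings were as follows. The interval held 0.195% ± 0.0118 of the PETs of a STAG2-null library and 0.187% ± 0.00307 of a wild-type library (SD, n = 2 each), with overlap, and the 10-Mb window around it held 1.09% ± 0.0114 and 1.09% ± 0.0133. Chromosome 17 as a whole held 7.90% ± 0.222 against 8.33% ± 0.0432, a log2 ratio of -0.08 without overlap. Scaled to the total of chromosome 17, the log2 change was 0.12 for HOXB1-HOXB9 and 0.25 for HOXB13, neither of them past the threshold.

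Promoters of related genes were followed where the authors' deposited table of differential loops places them. That table was chosen on these same libraries, so a gene could be followed only where a loop at it was already listed as different, and the calls below are not independent evidence. Of 29 genes of the other HOX clusters 5 were placed, all on 1 HOXD anchor, which did not pass the threshold (-0.09 ± 0.12). Of 9 HOX cofactor genes 2 were placed. MEIS1, whose protein binds DNA together with HOX proteins, rose by 0.68 ± 0.17 (adjusted p = 0.0167 in edgeR), and PKNOX2 did not pass (-0.72 ± 0.25). Of 15 regulators of HOX genes only RXRA, a retinoid receptor gene, was placed, and it fell by 0.69 ± 0.12 (adjusted p = 0.000279 in edgeR). Of 22 neighbours of the cluster 3 were placed, and none passed the threshold. These were PRAC1 on the HOXB13 anchor, IGF2BP1, which encodes an RNA-binding protein (0.22 ± 0.17), and PHOSPHO1, which encodes a phosphatase of bone mineralisation (0.03 ± 0.14). The IGF2BP1 anchor was a partner of HOXB13, with 4 and 5 PETs in STAG2-null cells against 3 and 3 in the wild type. Of 6 known targets of EWS-FLI1 2 were placed, CAV1 (0.64 ± 0.13, adjusted p = 0.00237 in edgeR) and NR0B1 (0.51 ± 0.30, not past the threshold). Among 249 placed genes outside the interval, the promoter anchors whose centred log2 normalised PETs over the 4 libraries were closest to those of HOXB13 belonged to PKP1 (Euclidean distance 0.0428), NAT10 (0.0871) and LAMTOR2 (0.104).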

How the data were processed

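SMC1 HiChIP contacts of the HOXB interval were taken from 4 per-library files in which the authors deposited a count of PETs and a p-value for each anchor pair. HiC-Pro and hg19 are named per the submitters' processing notes, with settings not given in the sources used here. Next, the authors' deposited tables of high-confidence and differential loops give counts, p-values and, per the file headers, a log2 fold change. Its sign was turned by the column that names the stronger genotype.

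From the counts, pairs with at least 20 PETs (11872 loops) and anchors with at least 20 (60425, plus the sums of the 2 sets) were tested on the whole table with edgeR 4.0.16 in R 4.3.3 by the quasi-likelihood test, with TMM scaling, library totals over all pairs and Benjamini-Hochberg adjustment. Calls used an adjusted p under 0.05. The script was tested on simulated data. Ratios and shares were compared over libraries with exact permutation tests. DESeq2 1.42.0, other scalings, minimums, lengths, anchor definitions and left-out libraries were alternatives. Named were all 18 anchors, the 10 strongest tested pairs per set and pairs in the authors' table. Members and lists were chosen with earlier results of these data known. At 1253 to 1420 PETs per library, single pairs rest on few PETs.

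Replicate numbers in the titles did not pair the libraries. The correlation of same-numbered deviations was 0.00306 over loops and 0.00631 over anchors.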

Additional observations from a re-analysis of the deposited data

How the results depend on the processing

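No loop or anchor of the interval was called, a count of 0 in each case, under edgeR, DESeq2, any scaling, minimum, anchor definition, length limit or loop set tried, with the replicate block, or with any 1 library left out. DESeq2 gave no adjusted p for some of the anchors, as listed above, so under it these could not be called. The lowest adjusted p of a single anchor was 0.120 and of a single pair 0.163. With the replicate number as a block the log2 change was 0.03 for HOXB1-HOXB9 and 0.16 for HOXB13, and no call changed. Merging anchors within 5 kb fuses most anchors of the cluster, so most named pairs have no value there. The tested pairs held 20 to 95 PETs over the 4 libraries, and there were 2 libraries per genotype.

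With 1 library left out, the change of HOXB1-HOXB9 ran from -0.0076 to 0.074, the latter without wild-type 1, and was negative without STAG2-null 2 or wild-type 2. The difference between the log2 ratios of the genotypes ran from -0.20 to 0.039 and was positive without STAG2-null 2. Plain library totals turned the pairs 46.714 to 46.722 (0.048) and 46.702 to 46.708 (0.047) positive, and so did totals of the 10-Mb window (0.047 and 0.045). Totals of the chromosome turned them positive too (0.13 and 0.13), with 46.801 to 46.868 (0.023), 46.673 to 46.692 (0.059) and the 46.722 anchor (0.067). The 46.642 anchor stood at -0.033 with pairs of at least 20 kb. With pairs of a deposited p under 0.05 in at least 1 library, the 46.708 anchor stood at -0.062 and the 46.722 anchor at 0.0048. The causes were not tested. In leave-one-out fits 17 pairs and 6 anchors changed sign, all uncalled. The pairs ran from -1.10 to 0.59 (46.642 to 46.692), -0.065 to 1.33 (46.653 to 46.665), -0.32 to 0.49 (46.665 to 46.692), -1.27 to 0.43 (46.665 to 46.702), -0.55 to 0.60 (46.673 to 46.692), -0.53 to 1.01 (46.681 to 46.692), -0.98 to 0.49 (46.702 to 46.708), -0.20 to 0.15 (46.714 to 46.722), -0.088 to 1.14 (46.722 to 46.801), -0.11 to 0.37 (46.749 to 46.801), -1.12 to 0.35 (46.756 to 46.801), -0.20 to 0.61 (46.801 to 46.815), -0.26 to 1.01 (46.801 to 46.830), -0.89 to 0.28 (46.801 to 46.848), -0.44 to 0.25 (46.801 to 46.868), -0.58 to 0.80 (46.801 to 46.879) and -1.19 to 0.27 (46.801 to 46.894). The anchors ran from -0.10 to 0.11 (46.673), -0.014 to 0.15 (46.692), -0.087 to 0.33 (46.708), -0.21 to 0.16 (46.722), -0.13 to 0.43 (46.749) and -0.16 to 0.20 (46.756).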

Other observations

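On the SKAP1 side, anchors other than 46.414 also met the interval mostly through HOXB1-HOXB9. The 46.338 anchor shared 24 and 34 PETs with the interval in the STAG2-null libraries and 18 and 25 in the wild-type libraries, of which HOXB1-HOXB4 and HOXB5-HOXB9 held 39 each over the 4 libraries. The 46.520 anchor (20, 15, 17 and 21 PETs), the 46.561 anchor (14, 20, 23 and 15) and the 46.385 anchor (15, 23, 16 and 16) overlapped between genotypes. HOXB13 held 3, 3 and 4 of their PETs over the 4 libraries. The 46.592 anchor had no PET with HOXB13 in any library, and it held 12 and 14 PETs with the interval in STAG2-null 1 and 2, against 27 and 20 in wild-type 1 and 2. The 46.570 anchor was also lower in both STAG2-null libraries (10 and 10 against 18 and 21 PETs). The 46.553 anchor was higher in both (22 and 22 against 7 and 16).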
